A study of Rattus norvegicus with 24 samples.

Results

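Striated muscle contracts with a family of myosin heavy chains that are encoded by separate genes, and 8 of them were looked for by symbol in the urethra of rats after simulated vaginal delivery (SVD). Of these 8 genes, 6 were matched among the 32883 genes of the table, each by 1 row: Myh3, Myh8, Myh4, Myh7, Myh6 and Myh15. Myh1 and Myh2, the genes of the fast IIX and IIA chains, were not matched and are not analysed here. The members were named by symbol and not by a threshold on their values, but with earlier results of these data known.

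All 24 urethras came from virgin female Sprague-Dawley rats of 12 weeks that underwent SVD, which combines a crush of the pudendal nerve with distension of the vagina, and no uninjured group was part of the RNA data used here. An injection into the aorta followed 1 h later and held either saline (control) or allogeneic mesoangioblasts, vessel-associated progenitor cells taken from the hind limb skeletal muscle of another rat (MABsallo). The third treatment held mesoangioblasts that also carried a vector for VEGF165 under an SFFV promoter with a truncated CD34 (MABsallo-VEGF). Both kinds of cells carried a GFP and luciferase reporter under a CMV promoter and were sorted on GFP. Urethras were taken 3d or 7d later, with 4 per group and thus 6 groups, and at 7d the labels mark MABsallo-VEGF replicates 6 and 7 as recovered. Host and injected cells were both of rat, so reads of one cannot be told apart from reads of the other here. A lower count in whole tissue can mean fewer cells of a type or less RNA per cell, and these cannot be told apart either.

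A myosin heavy chain carries the motor head and the tail that packs into the thick filament, and the chain present sets much of how fast a fibre shortens. During development and again in regenerating fibres, skeletal muscle uses the embryonic chain (Myh3) and the perinatal chain (Myh8) before adult chains replace them. Adult fast fibres use the IIB chain (Myh4) or its relatives IIX and IIA, and slow fibres use the beta chain (Myh7), which is also the slow chain of the heart. The alpha chain (Myh6) belongs mainly to the heart, and Myh15 is an ancient relative known from extraocular muscle and muscle spindles. In the urethra the striated fibres are those of the external urethral sphincter, which surrounds the smooth muscle layer.

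In the rat the skeletal genes stand side by side on chromosome 10, in the order Myh3, Myh2, Myh1, Myh4, Myh8 and Myh13 in the RefSeq annotation of GRCr8. Myh6 and Myh7 are neighbours on chromosome 15, and Myh15 is on chromosome 11. The counts were made on another build, Rnor6.0, so only this order and the promoter windows below are taken from GRCr8. The windows of the 3 chromosome 10 genes with most reads are shown because the results turn on these genes. Each runs from 250 bases before to 50 bases after the RefSeq start, 5′ to 3′ on the plus strand, and capitals mark every CANNTG (E-box) and TATAAA match on either strand.
Myh3: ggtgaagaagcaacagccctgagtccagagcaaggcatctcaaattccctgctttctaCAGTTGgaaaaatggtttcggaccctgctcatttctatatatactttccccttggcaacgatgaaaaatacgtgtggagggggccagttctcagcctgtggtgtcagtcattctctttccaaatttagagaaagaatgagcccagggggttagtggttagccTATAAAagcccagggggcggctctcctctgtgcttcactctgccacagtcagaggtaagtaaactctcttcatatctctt
Myh4: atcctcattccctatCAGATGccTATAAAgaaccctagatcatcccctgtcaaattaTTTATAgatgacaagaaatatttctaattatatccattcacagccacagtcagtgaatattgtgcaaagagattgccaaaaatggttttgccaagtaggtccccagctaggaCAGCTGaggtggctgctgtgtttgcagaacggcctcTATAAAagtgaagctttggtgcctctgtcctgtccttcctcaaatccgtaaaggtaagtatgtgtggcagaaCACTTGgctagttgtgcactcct
Myh8: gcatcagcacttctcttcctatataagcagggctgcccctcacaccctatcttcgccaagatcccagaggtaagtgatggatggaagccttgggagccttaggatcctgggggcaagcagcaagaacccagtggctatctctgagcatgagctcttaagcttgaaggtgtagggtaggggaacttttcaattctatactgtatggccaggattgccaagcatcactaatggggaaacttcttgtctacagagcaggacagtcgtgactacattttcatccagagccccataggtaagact
The Myh3 window (chr10:52268935-52269234) held 1 CANNTG match, which starts 192 bases before the start, and 1 TATAAA match at 30 bases. The Myh4 window (chr10:52421898-52422197) held 3 of each, with CANNTG at 235 and 81 bases before and 27 bases after the start, and TATAAA at 227, 193 and 45 bases before it. The Myh8 window (chr10:52462259-52462558) held neither, but TATATAA, which the TATAAA pattern does not match, stands near its 5′ end. A window depends on the annotated start, and the starts used in these urethras were not measured. The lack of matches is therefore not a lack of these elements in the Myh8 promoter. Among 33469 rat promoter windows of this length, 72.1% held a CANNTG and 14.2% a TATAAA. The myogenic E-box CAGCTG, itself a CANNTG, was in the Myh4, Myh6 and Myh7 windows and in 15.1% of all windows. A MEF2 pattern was in the Myh4 and Myh1 windows (3.29% of all windows) and overlapped a TATAAA in both. A CArG box was in the Myh4 window and in 1 of the windows of Myh15 (1.64% of all windows), and the TEAD motif CATTCC in those of Myh4, Myh1 and Myh6 (14.2% of all windows). These letters are descriptions of the windows and not sites shown to be bound.

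Values are normalized gene counts, which are reads on a gene divided by the size factor of the library. The libraries counted transcripts at their 3′ end, so reads do not grow with gene length. Reads that aligned to several places were discarded by the authors, and as these genes are near copies of one another, a gene may have lost reads this way. The libraries held 2170695 to 10166052 reads, fewest in MABsallo at 3d (median 3452557) against saline at 3d (median 4925904), and were spread mainly along 1 component of a PCA (PC1, 70.7% of the variance of 500 genes). Scores on PC1 were 49.8 to 90.1 for MABsallo at 3d and -55.8 to -26.6 for the 12 libraries of 7d. At 3d saline replicate 6 (54.6) and MABsallo-VEGF replicate 4 (0.7) stood apart from their groups, and saline replicate 8 scored -52.3. Saline replicate 8 was left out alone, and saline replicate 6 and MABsallo-VEGF replicate 4 together. Where either step ends or adds a call of a member, the value is given. For saline replicate 6 or MABsallo-VEGF replicate 4 left out alone, only counts of calls are given, in the closing section.

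Striated fibres were present in every library. Acta1, the actin of skeletal fibres, reached 13830 to 131700 normalized counts over the 24 samples, and Ckm, the muscle creatine kinase, 1594 to 19640. The cardiac markers Nppa (at most 1 read in a library) and Myl7 (at most 2 reads) were at or near 0, and the cardiac troponin Tnni3 reached 4.15 to 57.9 normalized counts. Myh6 was of the same kind, with 0 to 7 reads per library and 0 reads in 13 of the 24, so no fold change is given for it.

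Myh4 had the most reads of the 6 genes in 24 of 24 samples. At 7d it made up 91.5% ± 2.98 (SD, n = 4) of all myosin heavy chain reads in saline, 88.1% ± 1.53 in MABsallo and 89.4% ± 3.95 in MABsallo-VEGF. At 3d its share was 76.5% ± 21.3 in saline, 63.1% ± 12.96 in MABsallo and 67.0% ± 1.46 in MABsallo-VEGF. The rest at 3d was mostly Myh3 and Myh8. These shares are of reads of the 6 matched genes, so the IIX and IIA chains are not part of them.

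**Figure D1:**
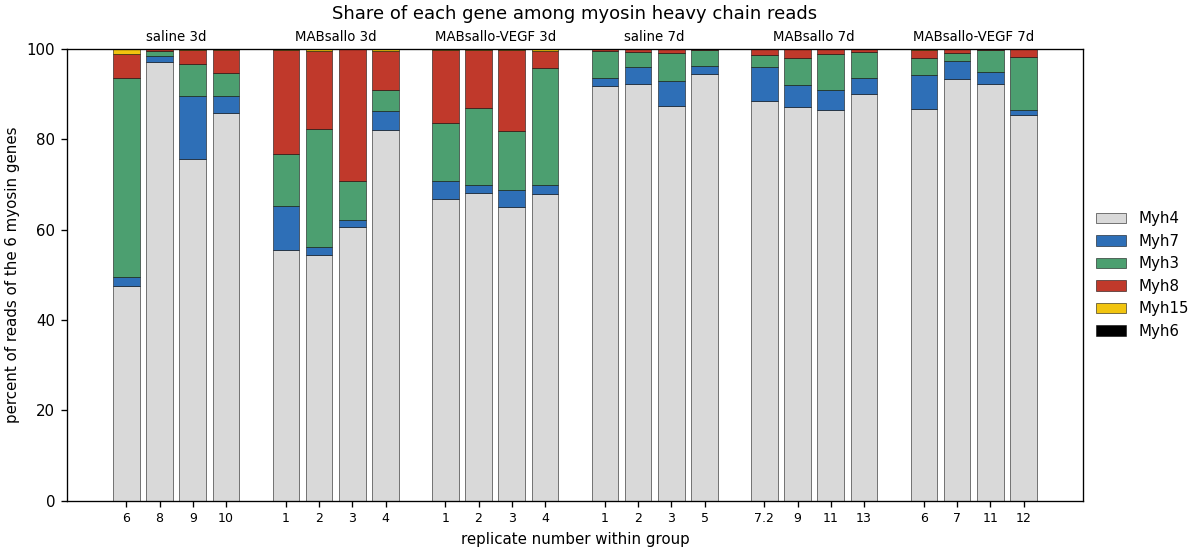
Percent of the reads of the 6 myosin heavy chain genes taken by each gene (y axis), 1 stacked bar per library with the replicate number under it and the group above it. Myh4 (grey) is the largest part of every bar, and Myh3 (green) with Myh8 (red) makes up 13.5% to 43.3% in MABsallo at 3d and 2.63% to 13.5% in MABsallo-VEGF at 7d.

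The developmental chains together, Myh3 and Myh8, took 28.98% to 30.98% of myosin heavy chain reads in the 4 MABsallo-VEGF urethras at 3d. In MABsallo at 3d they took 13.5% to 43.3% (median 36.1%) and in saline at 3d 1.57% to 49.5% (median 10.2%). The saline urethra at 49.5% is replicate 6, and the other 3 lie between 1.57% and 10.2%. At 7d the same share was 3.79% to 7.19% in saline, 4.06% to 9.14% in MABsallo and 2.63% to 13.5% in MABsallo-VEGF. Which of the pair carried the share differed between libraries: in MABsallo-VEGF replicate 4 at 3d Myh3 took 26.005% and Myh8 3.81%, whereas in MABsallo replicate 3 at 3d Myh3 took 8.47% and Myh8 29.2%.

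**Figure D2:**
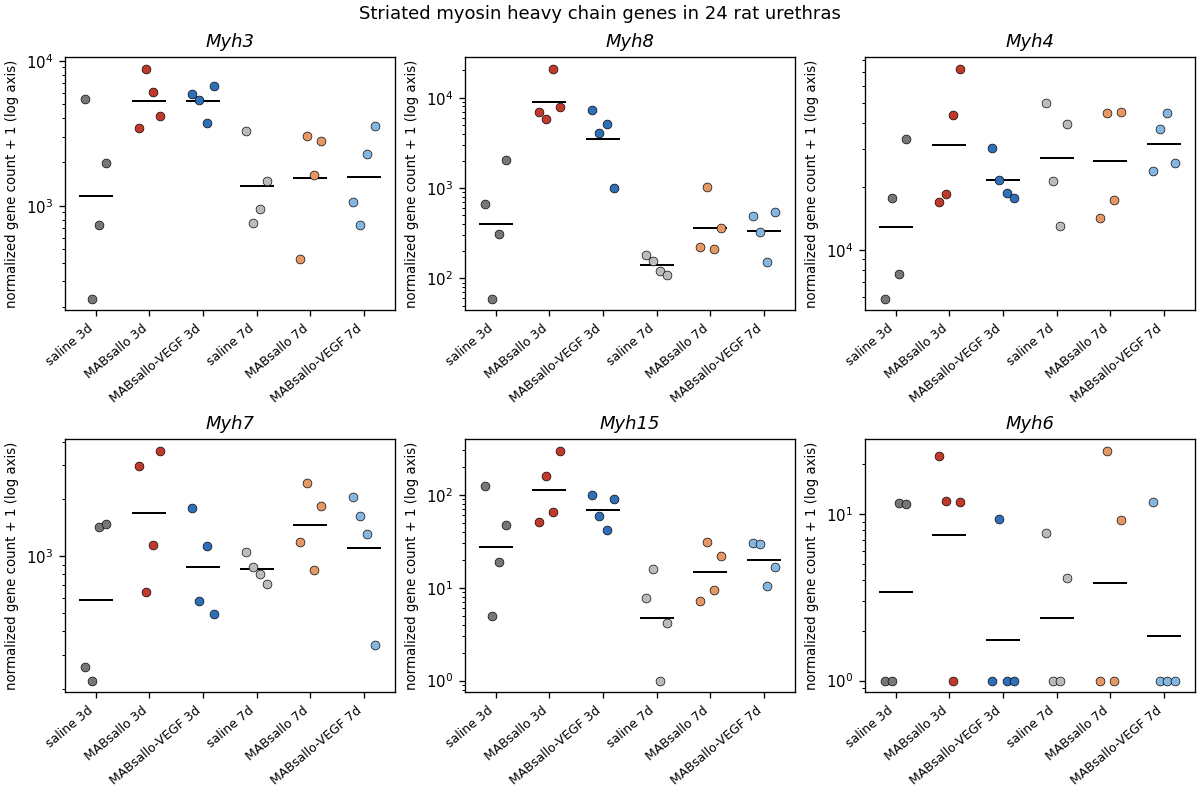
Normalized gene count plus 1 (y axis, log scale, its range set per panel) of each gene in the 24 urethras, 1 point per sample and 4 per group on the x axis, with a line at the mean of the log values. Myh8 separates the 4 MABsallo urethras at 3d (5859 to 21039) from the 4 saline urethras (58.8 to 2020), and Myh4 overlaps between all groups.

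Myh8, the perinatal chain, rose most clearly with cells at 3d. Saline urethras at 3d held 671, 58.8, 307 and 2020 normalized counts (replicates 6, 8, 9 and 10), and MABsallo urethras 7015, 5859, 21039 and 7790 (replicates 1 to 4). The lowest MABsallo value was above the highest saline value, but the share of all genes for which this holds was not counted. The log2 fold change, on the scale of log2(normalized gene count + 1), was 4.51 (SE 0.758, 95% confidence interval 2.94 to 6.08) with an adjusted p of 0.0059 by limma. This was the 128th highest of 16287 genes tested, 12.3% of which were called in this comparison, which needs a log2 fold change larger than 1 in size besides an adjusted p under 0.05. Without saline replicate 6 and MABsallo-VEGF replicate 4 it was 4.76 (adjusted p = 2.49e-04), and without saline replicate 8 it was 3.60 (adjusted p = 0.0277), where the share of all genes called fell to 2.26%. In a fit of only the 8 samples compared the fold change was the same but the call was lost (adjusted p = 0.0608), and 0.0304% of all genes were called. MABsallo replicate 3 was far above the other 3 of its group.

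Myh3, the embryonic chain, was also called in MABsallo versus saline at 3d, with overlapping groups. Its counts were 5444, 227, 733 and 1974 in saline and 3458, 8852, 6093 and 4166 in MABsallo. Saline replicate 6 alone was within the MABsallo range. The log2 fold change was 2.19 (SE 0.721, adjusted p = 0.0431, limma), near the threshold. It was 2.93 (adjusted p = 0.00453) without both libraries that stand apart, but 1.41 (adjusted p = 0.211) without saline replicate 8, and DESeq2 on the recovered reads gave 1.43 (adjusted p = 0.118). In the fit of only the 8 samples compared its adjusted p was 0.123.

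The adult chains were not called in this comparison on all samples. Myh4 held 5864, 17701, 7694 and 33617 normalized counts in saline and 16820, 18437, 43629 and 72811 in MABsallo at 3d, and the groups overlapped. Its log2 fold change was 1.30 (95% confidence interval 0.181 to 2.42, adjusted p = 0.102). Myh4 was called in 1 of the 8 limma fits that each left out 1 sample (lowest adjusted p = 0.0394). Myh7 held 219 to 1474 in saline and 646 to 3591 in MABsallo, with a log2 fold change of 1.51 (95% confidence interval 0.183 to 2.835, adjusted p = 0.108). Myh15 held 1 to 36 reads in saline libraries and 7 to 55 in MABsallo libraries. Its log2 fold change was 2.05 (95% confidence interval 0.196 to 3.902, adjusted p = 0.119), and it was called without both libraries that stand apart (2.78, adjusted p = 0.0329). Over the 5 genes other than Myh6 the median log2 fold change was 2.05, beside 0.07 over all genes tested, and 2 of 6 were called by limma, 1 by DESeq2 and 1 by edgeR (Myh8 in each case, beside 11.8% and 8.24% of all genes). Before adjustment 5 of 6 had a limma p below 0.05, all but Myh6 and thus the adult chains too, beside 5122 of 16287 genes tested.

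In MABsallo-VEGF versus saline at 3d, which shares the saline samples with the comparison above, limma called 0 of 6 genes and 0.0307% of all genes. Before adjustment 2 of 6 had a p below 0.05, Myh3 and Myh8. DESeq2 called 1 (Myh8), beside 2.44% of all genes, and edgeR 0, beside 0.00614%. Myh8 held 7294, 4059, 5141 and 988 normalized counts in MABsallo-VEGF, and the last, replicate 4, was below the highest saline urethra. Its log2 fold change was 3.14 (SE 0.758, adjusted p = 0.0753). Myh3 held 5856, 5359, 3718 and 6741, a tighter group than saline, with a log2 fold change of 2.19 (SE 0.721, adjusted p = 0.13). Without both libraries that stand apart 2 of 6 genes and 13.6% of all genes were called, with Myh8 at 3.999 (adjusted p = 0.00251) and Myh3 at 2.82 (adjusted p = 0.0122). Without saline replicate 8 both moved the other way, Myh8 to 2.23 (adjusted p = 0.323) and Myh3 to 1.41 (adjusted p = 0.504). Myh4 (0.75, adjusted p = 0.49), Myh7 (0.57, adjusted p = 0.691) and Myh15 (1.33, adjusted p = 0.455) were not called.

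MABsallo-VEGF and MABsallo urethras at 3d were compared directly to ask whether the VEGF vector adds to the effect of the cells. limma, DESeq2 and edgeR each called 0 of 6 genes, none had an unadjusted p below 0.05, and limma called 0.00614% of all genes. Myh8 differed by -1.37 (95% confidence interval -2.94 to 0.195, adjusted p = 0.842), so that an equal level and a level several times lower are both within the interval. Myh3 differed by 0.004 (95% confidence interval -1.486 to 1.495).

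**Figure D3:**
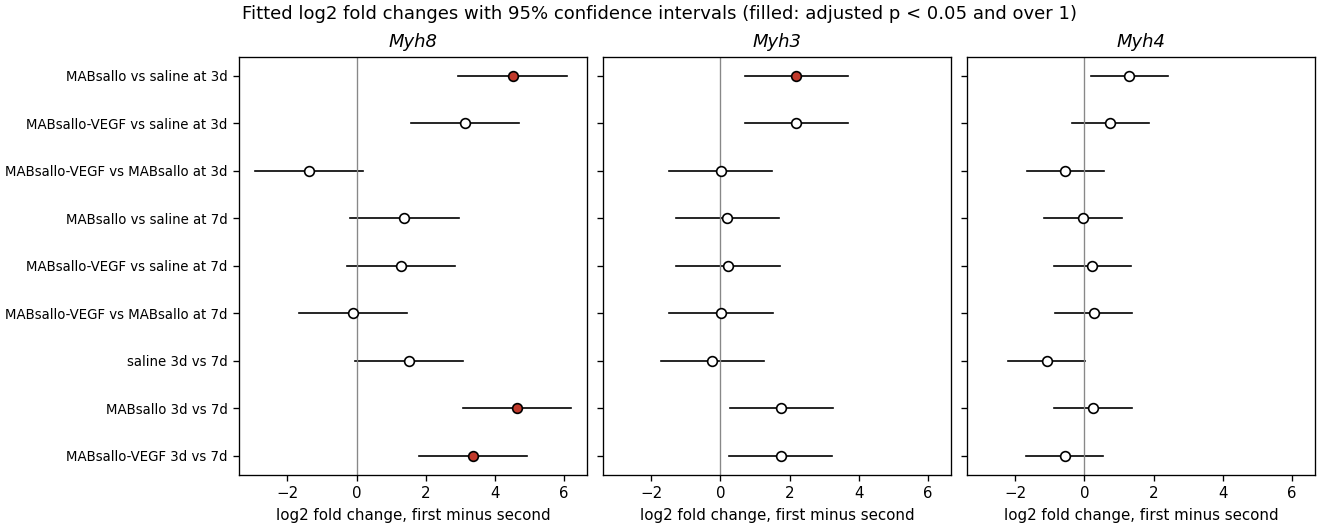
Log2 fold change (x axis, first group minus second) of Myh8, Myh3 and Myh4 in 9 comparisons (y axis), with bars for the 95% confidence interval of the limma fit and red points where the gene was called. Myh8 was called in MABsallo versus saline at 3d (4.51) and in both cell groups between 3d and 7d (4.64 and 3.37), and Myh4 was called in none of the 9.

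At 7d no member was called between treatments, and the intervals were wide. Myh8 held 183, 154, 121 and 107 normalized counts in saline, 220, 1013, 212 and 361 in MABsallo and 490, 325, 152 and 536 in MABsallo-VEGF. Every MABsallo value was above every saline value, but the share of all genes with such a lack of overlap was not counted. The log2 fold change was 1.38 (95% confidence interval -0.184 to 2.95, adjusted p = 0.84), in a comparison in which limma called 0% of all genes. For MABsallo-VEGF versus saline Myh8 differed by 1.28 (95% confidence interval -0.282 to 2.85) and Myh15 by 2.06 (adjusted p = 0.76), and 0% of all genes were called. Between MABsallo-VEGF and MABsallo the largest difference of the 5 genes was 0.44 (Myh15, adjusted p = 1), and again 0% of all genes were called. In these 3 comparisons limma, DESeq2 and edgeR called 0 of 6 genes each, and the 1 gene with an unadjusted p below 0.05 was Myh15 in MABsallo-VEGF versus saline. Myh15 rests on 0 to 10 reads per library at 7d.

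Of the developmental chains, Myh8 was called between 3d and 7d in both cell groups, and Myh3 in neither by limma on all samples. In both cell groups the libraries of 3d also had fewer reads and higher PC1 scores than those of 7d. The part of this in the differences was not tested. Between 3d and 7d Myh8 was higher at 3d by 4.64 in MABsallo (SE 0.758, adjusted p = 1.78e-04) and by 3.37 in MABsallo-VEGF (SE 0.758, adjusted p = 0.00314), and in both the groups did not overlap. The shares of all genes called were 23% and 15.3%. Both calls were kept by DESeq2 and edgeR, in a fit of only the groups compared, without both libraries that stand apart and with each sample of the groups compared left out. Myh15 was called in MABsallo (2.95, adjusted p = 0.0153) and had 1.79 (adjusted p = 0.165) in MABsallo-VEGF. Myh3 was at 1.76 (adjusted p = 0.0679) in MABsallo and 1.74 (adjusted p = 0.091) in MABsallo-VEGF, with no overlap of days in either. The share of all genes without such overlap was not counted. Without both libraries that stand apart Myh3 was called in MABsallo (1.76, adjusted p = 0.0413). Myh4 was at 0.24 (adjusted p = 0.769) and -0.57 (adjusted p = 0.49), and Myh7 at 0.21 (adjusted p = 0.841) and -0.34 (adjusted p = 0.751).

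In saline the step from 3d to 7d was not called by limma for any of the 6 genes, while 3.19% of all genes were. Myh15 was at 2.51 (adjusted p = 0.118) and alone had an unadjusted p below 0.05, and Myh8 was at 1.52 (adjusted p = 0.283). DESeq2 called both, Myh8 at 2.44 (adjusted p = 0.00777) and Myh15 at 2.89 (adjusted p = 0.0159), and edgeR called Myh8 only, beside 8.51% and 6.07% of all genes. Saline replicate 8 at 3d, with 15 reads on Myh8, was below all 4 saline urethras of 7d. Without it limma called Myh8 (2.43, adjusted p = 0.0194) and Myh15 (3.33, adjusted p = 0.0153), with 7.86% of all genes called. Without the libraries that stand apart Myh8 was at 1.26 (adjusted p = 0.504), with 0.19% of all genes called.

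Whether the effect of cells differed between days was tested with an interaction term. Myh8 had 3.13 (SE 1.07, adjusted p = 0.238) for MABsallo and 1.86 (SE 1.07, adjusted p = 0.667) for MABsallo-VEGF, and Myh3 had 1.99 (adjusted p = 0.386) and 1.98 (adjusted p = 0.632). limma called 0% of all genes in either term. limma, DESeq2 and edgeR called 0 of 6 genes in each, and the 1 unadjusted p below 0.05 was that of Myh8 for MABsallo. A difference between days in the effect of cells was therefore not established for these genes.

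Recovered MABsallo-VEGF urethras at 7d (replicates 6 and 7) held 1056 and 736 normalized counts of Myh3, and the other 2 (replicates 11 and 12) 2265 and 3556. For Myh7 the order was the opposite, with 2050 and 1614 in the recovered urethras and 1310 and 340 in the others. Neither gene overlapped, nor did Myh15 (means of 28.8 in the recovered urethras and 12.5 in the others). With 2 against 2 a lack of overlap carries little weight, and the share of all genes without overlap was not counted. The log2 fold changes of -1.69 (Myh3, 95% confidence interval -3.72 to 0.345) and 1.44 (Myh7, 95% confidence interval -0.371 to 3.26) had adjusted p of 1. limma, DESeq2 and edgeR called 0 of 6 genes, none had an unadjusted p below 0.05, and limma called 0% of all genes.

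The counts of the myosin genes were also divided by the summed count of 10 genes of striated fibre content, to set them against fibre RNA in each sample. The sum includes Neb (2.27), Ryr1 (2.005) and Cacna1s (3.72), each called higher in MABsallo versus saline at 3d. It is therefore not a measure of fibre amount apart from treatment. That sum was 33060 to 155300 in saline, 92930 to 329700 in MABsallo and 81300 to 187500 in MABsallo-VEGF at 3d, with overlap. Relative to it Myh8 was higher in MABsallo than in saline at 3d by 3.15 on the log2 scale, without overlap (p = 0.0286 by an exact two-sided permutation test, which cannot go lower with 4 samples a group). After adjustment over 36 such comparisons p was 0.206. The same held for Myh8 between 3d and 7d in MABsallo (3.99, exact p = 0.0286) and MABsallo-VEGF (3.47, exact p = 0.0286), and between MABsallo and saline at 7d (1.34, exact p = 0.0286), each with an adjusted p of 0.206. Myh3 relative to fibre content differed by 0.83 (exact permutation p = 0.571) in MABsallo versus saline at 3d and by 1.36 (exact permutation p = 0.314) in MABsallo-VEGF versus saline. Saline replicate 6, one of the libraries that stand apart, had Myh3 at 16.5% of fibre content, and the other 3 saline urethras 0.265% to 1.45%, against 1.26% to 6.51% in MABsallo and 3.12% to 8.29% in MABsallo-VEGF. Without both libraries that stand apart Myh3 relative to fibre content differed by 1.93 (exact permutation p = 0.171) in MABsallo versus saline and, now without overlap, by 2.14 in MABsallo-VEGF versus saline (exact permutation p = 0.1, the smallest that 3 against 3 allows). Without saline replicate 8 these were -0.06 and 0.47. Myh8 relative to fibre content in MABsallo versus saline at 3d was 3.76 without both libraries and 2.13 without saline replicate 8, each without overlap (exact permutation p = 0.0571, the smallest that 4 against 3 allows). Myh4 relative to fibre content differed by -0.06 and -0.09 in MABsallo and MABsallo-VEGF versus saline at 3d. Between days it was lower at 3d in all treatments. In MABsallo-VEGF it differed by -0.477 without overlap (exact permutation p = 0.0286, adjusted p = 0.206). With overlap it differed by -0.432 in saline and -0.412 in MABsallo.

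**Figure D4:**
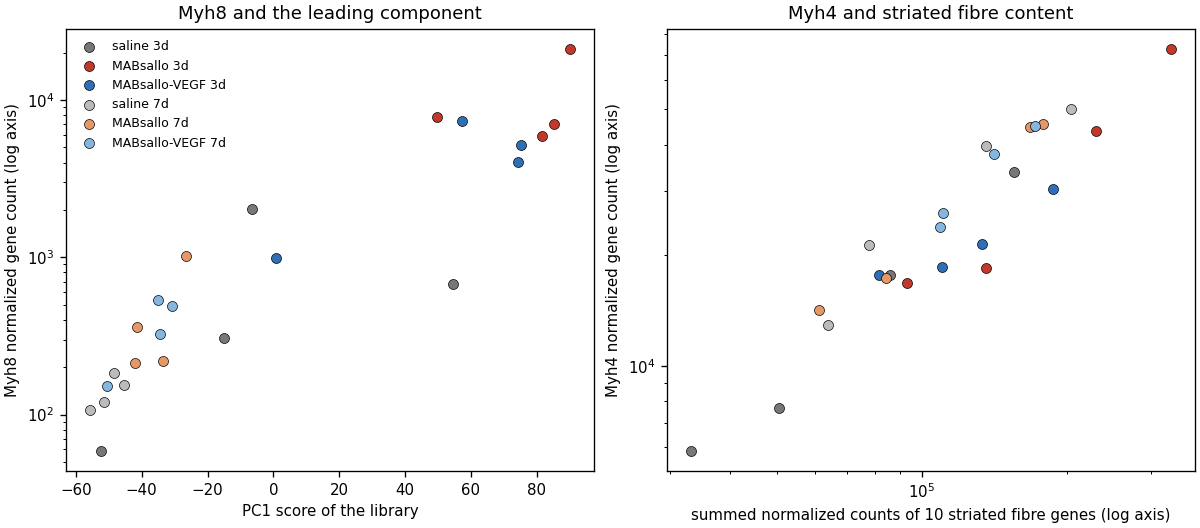
Left, Myh8 normalized gene count (y axis, log scale) against the PC1 score of each library (x axis), and right, Myh4 (y axis, log scale) against the summed normalized count of 10 striated fibre genes (x axis, log scale), 1 point per urethra coloured by group. Pearson's r over the 24 libraries is 0.919 for Myh8 with PC1 and 0.944 for Myh4 with the log2 sum. Saline replicate 6 at 3d has a PC1 score of 54.6 with 671 counts of Myh8, and MABsallo-VEGF replicate 4 at 3d a score of 0.7 with 988. The part of PC1 in the Myh8 counts was not tested.

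The genes with the pattern most like each member over the 24 samples were found by Pearson's r of log2(normalized gene count + 1). Those most like Myh3 were Actc1, the actin of heart and developing skeletal fibres (r = 0.863), the transcription factor Klf12 (r = 0.815) and Mymk, the membrane protein that drives myoblast fusion (r = 0.805). Those most like Myh4 were Acta1 (r = 0.944), Actn2, an alpha-actinin of the Z-disc (r = 0.943), and Eef1a2, the elongation factor of muscle and neurons (r = 0.937). Myh7 was most like Pdcd6ip (r = 0.761), Tnnt1, the slow skeletal troponin T (r = 0.759), and Acat1, a mitochondrial thiolase (r = 0.727). These values are a description without a test, since samples of a group share a treatment.

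Myh8 had no sarcomere gene among its 3 most alike. They were Alkbh5, an RNA demethylase (r = 0.950), Fam13a (r = 0.950) and Mt-nd6, a complex I subunit encoded by the mitochondrial genome (r = 0.948). Mt-nd6 held 43.1 to 658 normalized counts in saline at 3d, 3277 to 5432 in MABsallo and 356 to 5234 in MABsallo-VEGF, and 25.2 to 191 at 7d. Alkbh5 held 372 to 1649, 2684 to 3757 and 1425 to 3500 at 3d, and 328 to 904 at 7d. The MABsallo libraries at 3d, in which Myh8 rose, had high PC1 scores, fewer reads and high counts of these genes. Over the 24 samples Myh8 had a Pearson's r of 0.919 with the PC1 score and -0.762 with log2 depth. Both were the largest in size of the 6 genes. Saline replicate 6 at 3d had a PC1 score of 54.6 with 671 counts of Myh8, and MABsallo-VEGF replicate 4 at 3d a score of 0.7 with 988. The part of library make-up in the Myh8 result was not tested. Myh15 was most like Limch1 (r = 0.929), Rabl6 (r = 0.893) and the proteasome subunit Psmd11 (r = 0.890).

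Whether members vary together from sample to sample within groups was asked for the embryonic and perinatal pair and for the cardiac pair. With group means removed, Pearson's r over the 24 samples was 0.501 (permutation p = 0.0971) and Spearman's rho 0.447 (permutation p = 0.0686), and r was 0.285 without the 2 samples farthest from the median of Myh3. For Myh6 and Myh7 r was 0.520 (permutation p = 0.0309, adjusted p = 0.0618) and rho 0.560 (permutation p = 0.0201, adjusted p = 0.0401), r was 0.458 without the 2 farthest samples, and Myh6 rests on at most 7 reads. The adjustment covers these 2 pairs.

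Genes that work with the myosin heavy chains were counted by list in MABsallo versus saline at 3d. Of the partners in the thick filament and M-band, 5 of 10 tested rose and none fell (median 2.16), among them Myom2 and Myom1, which link thick filaments in the M-band, by 4.62 (adjusted p = 0.00791) and 4.21 (adjusted p = 0.00665), and Myom3 by 2.83. Of the slow fibre partners 4 of 8 rose (median 1.47), namely Tnnt1 (1.65), Myoz2 (1.51), Tpm3 (1.498) and Tnni1 (1.44). Of the fast fibre partners 1 of 7 rose (median 0.86), the fast troponin T Tnnt3 (1.55). Of the light chains and their kinase 1 of 6 rose (median 1.32), the fast regulatory chain Mylpf (1.42, adjusted p = 0.0483). These counts are by limma and stand beside 12.3% of all genes called. In the same order DESeq2 called 6, 3, 1 and 1, beside 1920 of all genes. edgeR called 5, 0, 0 and 0, beside 1342 of all genes.

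Among markers of striated fibre content 3 of 10 rose (median 1.24), Cacna1s (3.72) and Ryr1 (2.005), the calcium channels of excitation-contraction coupling, and Neb, the thin filament ruler (2.27). Acta1 was at 0.95 (adjusted p = 0.22) and Ckm at 1.51 (adjusted p = 0.0598). Of the embryonic and regenerating fibre partners 1 of 11 rose (median 1.08), the fusion peptide Mymx (3.72). Of the fibre type regulators 5 of 14 rose (median 1.21), among them Eya1 (4.61), Tead1 (3.19), Sox6, a repressor of slow fibre genes (1.39), and Mef2c (1.28). These calls are by limma. For striated fibre content, embryonic partners and fibre type regulators DESeq2 called 4, 1 and 4, and edgeR 3, 0 and 2. Without saline replicate 8 thick filament partners kept a count of 5, while slow fibre partners, fast fibre partners, light chains, embryonic partners and fibre type regulators had 0 called. Without both libraries that stand apart the counts were 5, 3, 0, 0, 4 and 6 in the same order, beside 18.1% of all genes called, and without saline replicate 8 that share was 2.26%.

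None of the 4 other myosin heavy chains tested was called in MABsallo versus saline at 3d, among them the smooth muscle chain Myh11 (1.34, adjusted p = 0.092). Of the marker lists of other cells, 0 of 4 cardiac, 0 of 8 smooth muscle, 0 of 6 urothelial, 0 of 4 endothelial and 0 of 5 adipocyte genes were called, with medians of 0.96, 0.33, 1.11, -0.25 and -1.42. Acta2, the smooth muscle actin, was at -0.34 (adjusted p = 0.615). Of the macrophage markers 3 of 6 fell (median -1.94) and of the fibroblast markers 2 of 5 fell (median -1.59). These calls are by limma. DESeq2 called 4 macrophage, 2 fibroblast and 2 adipocyte markers, and edgeR 3, 1 and 0. The summed macrophage markers were 8240 to 18220 in saline and 788 to 7829 in MABsallo, and the summed fibroblast markers 339600 to 510400 and 54560 to 299900, in both cases without overlap. The higher share of striated genes and the lower share of these markers came in the same MABsallo libraries, and the part of tissue make-up in the myosin results was not tested. The summed smooth muscle markers were 20180 to 215100 in saline and 92800 to 154300 in MABsallo. Without both libraries that stand apart 3 macrophage and 4 fibroblast markers fell, and without saline replicate 8 these counts were 1 and 0.

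**Figure D5:**
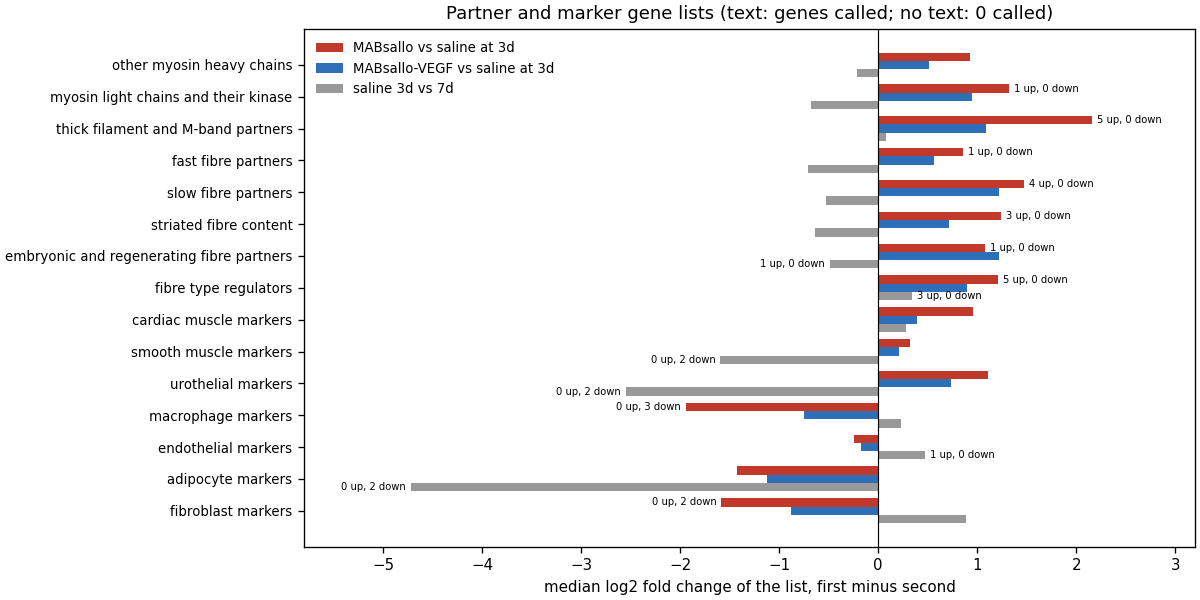
Median log2 fold change (x axis) of each partner and marker list (y axis) in MABsallo versus saline at 3d (red), MABsallo-VEGF versus saline at 3d (blue) and saline at 3d versus 7d (grey), with text giving the genes called up and down where any were. Thick filament and M-band partners have the highest red bar (2.16, 5 called up) and macrophage markers the lowest (-1.94, 3 called down).

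In MABsallo-VEGF versus saline at 3d limma called no gene of any of the 15 lists, DESeq2 called 4 of 108 list entries tested and edgeR 0, with 33 at an unadjusted p below 0.05. Over all 16287 genes DESeq2 called 397 (2.44%), and 2923 had an unadjusted p below 0.05. The medians were 1.09 for thick filament partners, 1.22 for slow fibre partners, 0.56 for fast fibre partners, 0.71 for striated fibre content, 1.22 for embryonic and regenerating fibre partners and 0.90 for fibre type regulators, beside 0.04 over all genes. Without both libraries that stand apart 2, 2, 0, 2, 2 and 5 genes of these lists were called, all higher with cells, beside 13.6% of all genes. In the direct comparison of MABsallo-VEGF with MABsallo limma, DESeq2 and edgeR called no entry, and 4 had an unadjusted p below 0.05.

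Beside the lists between 3d and 7d stand the shares of all genes called, 23% in MABsallo, 15.3% in MABsallo-VEGF and 3.19% in saline. The thick filament partners had 5 of 10 called higher at 3d in MABsallo and 2 of 10 in MABsallo-VEGF, Myom1 and Myom2 in both (3.95 and 4.88, and 3.07 and 3.56). In saline 0 of 10 were called by limma. The embryonic and regenerating fibre partners had 3 of 11 called in MABsallo (Mymx 3.28, Myod1 2.28 and Myog 2.12, the last a pair of myogenic transcription factors), 4 of 11 in MABsallo-VEGF (Tnnt2 1.91, Mymk 1.80, Myog 1.62 and Ncam1 1.15) and 1 of 11 in saline (Ncam1 1.48). The fibre type regulators had 7, 4 and 3 of 14 called, and Sox6, Mef2a and Prox1, the last a regulator of slow fibres, were higher at 3d in all 3 treatments. Prox1 differed by 4.44 in MABsallo, 6.48 in MABsallo-VEGF and 4.55 in saline. The fast fibre partners had 0 of 7 called in each, with medians of -0.05, -0.53 and -0.71. Markers of other cells moved between the same days: in MABsallo 5 of 5 adipocyte, 2 of 6 macrophage, 2 of 6 urothelial and 2 of 8 smooth muscle markers were lower at 3d, in MABsallo-VEGF 1 smooth muscle marker (Acta2), and in saline 2 adipocyte, 2 urothelial and 2 smooth muscle markers, while 1 of 4 endothelial markers (Kdr) was higher. Their part in the differences between days was not tested.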

How the data were processed

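Gene-level 3′ RNA sequencing (QuantSeq) was measured in 24 rat urethras. Per the paper's methods and the labels, the authors trimmed single-end reads, used HISAT2 with the Rnor6.0 build, left out reads with several alignments, counted genes with HTSeq and normalized with DESeq2. The deposited values are a signal, reads per gene divided by a size factor. All values came out as whole reads (100% within a tolerance of 0.01), which gave the depth of each library. limma 3.58.1 (lmFit, then eBayes with a trend) was fitted to log2(normalized gene count + 1) of the 6 groups together, for 16287 of 32883 genes with a mean of at least 2, with two-sided p adjusted by Benjamini-Hochberg over all genes tested. Calls needed a log2 fold change larger than 1 in size besides an adjusted p under 0.05. DESeq2 1.42.0 and edgeR 4.0.16 on the recovered reads were alternatives. The scripts were tested on simulated data. For each gene, limma p-values rest on the spread between animals within groups, pooled over all groups of the fit and not only those compared. eBayes moderated that spread across genes. The members, gene lists and tests were chosen with earlier results of these data known. Named genes were the members, at most 4 called genes of each list per comparison by size of fold change, defining muscle markers and, for each member with a median of at least 10, the 3 genes (mean of at least 10) with the highest Pearson's r over 24 samples. Genes named beyond these were chosen after their values were seen. Division by striated fibre content, and the lists and ratios without single libraries, were added after seeing the data.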

Additional observations from a re-analysis of the deposited data

Results flagged for a closer look

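Of 36 groups of 4 samples tested over the 6 genes, 3 held a sample whose gap to the nearest other, as a part of the group's whole range, was above Dixon's 95% critical value for 4 samples, and chance gives about 1 in 20. Myh8 in MABsallo replicate 3 at 3d (21040 normalized counts) stood above the next sample (7790), with a ratio of 0.873. Myh6 in MABsallo-VEGF replicate 2 at 3d (8.33 normalized counts, 1 read) and in MABsallo-VEGF replicate 6 at 7d (10.9 normalized counts, 3 reads) had a ratio of 1, since the other 3 samples of each group were at 0.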

How the results depend on the processing

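The number of all genes called changed with the setting too, and the counts of members stand beside it. By limma, DESeq2, edgeR and limma without both libraries that stand apart, it was 1997, 1920, 1342 and 2951 in MABsallo versus saline at 3d. In MABsallo-VEGF versus saline at 3d it was 5, 397, 1 and 2213, and between saline at 3d and 7d 520, 1386, 988 and 31. It is not listed here for the other settings. Of the 6 genes, limma called 2 in MABsallo versus saline at 3d. With no filter, DESeq2, edgeR or libraries scaled to the same total 1 was called each time, and with only the groups compared 0. Leaving out 1 sample gave 1 to 3, and 1 without saline replicates 8 or 9 or MABsallo replicates 1, 2 or 3, where Myh3 was lost. In MABsallo-VEGF versus saline at 3d 0 were called, but 1 with a pseudocount of 5, DESeq2 or sample quality weights, 2 without both libraries that stand apart, and 0 to 2 with 1 sample left out (2 without saline replicate 6, 1 without MABsallo-VEGF replicate 4). Between saline at 3d and 7d 0 were called, but 2 by DESeq2, 1 by edgeR, 2 with quality weights and 0 to 2 with 1 sample left out (2 without saline replicate 8 at 3d). Between 3d and 7d 2 were called in MABsallo, with 1 to 3 on leaving out a sample (1 without replicate 4 at 3d or 7.2 at 7d), and 1 in MABsallo-VEGF, with 2 when only the groups compared were fitted. The causes were not tested. No called value changed direction. Replicate numbers 1 to 4 of MABsallo and MABsallo-VEGF at 3d are shared, but deviations of same-numbered samples correlated at 0.222, 0.151, 0.073 and 0.254, so 3 of 4 pairs, and not all, were over 0.1, the level required of each pair to treat the numbers as pairs. MABsallo replicates 1, 2 and 4 correlated best with their own number and replicate 3 with number 2 (0.079), a hint from the data that the labels do not bear on. With a replicate block 0 of 6 genes were called there, with Myh8 at -1.37 (adjusted p = 0.645, limma). Depth limits Myh6 and Myh15, which rest on few reads.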
